A study of Mus musculus with 8 samples.

Results

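Rad21 ChIP-seq peak lists of FS_Ia and FS_Ca cells, 2 libraries each, were compared region by region. Both genotypes keep the γ3 and α switch regions of the Igh heavy chain locus at full length. The engineered allele carries Iα or Cα beside them, and the parent cells, described below, differ as well. Peaks of the 4 lists that overlapped by at least 1 bp were merged into 42774 regions. Of these, 1057 were left out because they lay on chromosome X, Y or M, or on chromosome 12 from position 114500000 on, where coordinates of the 2 genotypes are displaced against each other. The other 41717 regions are the ones described here, beside 64772 when all 8 libraries of the series were merged in the same way. All 4 lists held 9176 of them (22.0%), 3 lists held 4053 (9.72%), 2 lists held 5812 (13.9%) and a single list held 22676 (54.4%).

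Rad21 is the kleisin subunit of cohesin, the ring that extrudes chromatin loops and stops mostly where CTCF is bound in convergent orientation, so Rad21 peaks mark loop anchors as well as active promoters and enhancers. At Igh, cohesin loop extrusion is known to bring switch regions together with the 3' regulatory region, and class switch recombination joins their breaks mostly in the orientation that deletes the DNA between them. The enzyme that starts those breaks, AID, was absent from every line here. The comparison asks what Rad21 occupancy of the rest of the genome looked like in the 2 orientations, a term used here for the Ia and the Ca lines.

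All 4 libraries came from CH12F3, a mouse B lymphoma line that can switch to IgA, grown for 72 h with anti-CD40, IL4 and TGF-β. FS_Ca (Iγ3-FS-Cα-AID-/-) has the stretch from Cg3 to Ia deleted, with Sg3 and Sa left whole, on a background where the non-coding Igh allele is missing VH to the 3'BCEs. FS_Ia (Iγ3-FS-Iα-AID-/-) has the stretch from Cg3 to Ca deleted, again with Sg3 and Sa whole, in aInv cells. The 4 PS libraries used for reference (PS_Ca and PS_Ia, 2 each) are also AID-/- but have the Sg3 to Sa segment reduced to parts of both switch regions. The labels do not say whether a line is 1 clone, nor whether replicates were grown apart, so p-values measure only the spread between these libraries. The parent cells differ as well as the allele, so the effects of Iα against Cα and of the parent line cannot be told apart. Peak lists hold no expression values, and the identity of the cells was not checked against markers.

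The 4 lists differed in length and in depth. FS_Ca replicates 1 and 2 had 17212 and 31550 peaks, and FS_Ia replicates 1 and 2 had 13840 and 26157. The peaks used here exclude chromosomes X, Y and M and the left-out end of chromosome 12. They numbered 16583 and 31131 in FS_Ca and 13493 and 25666 in FS_Ia. The means of these used peaks were 23857 ± 10290 in FS_Ca and 19579.5 ± 8608 in FS_Ia (SD, n = 2). The spread within either genotype exceeded the difference of -4277.5 peaks (exact two-sided permutation p = 0.667; the 6 assignments allow no p below 0.333). Replicate 2 of each genotype had the longer list, and the genotypes overlapped. In the regions held by all 4 lists the median summit was 11, 17, 10 and 11 fragments high, in the order FS_Ca 1, FS_Ca 2, FS_Ia 1 and FS_Ia 2. FS_Ia replicate 2 stood apart: its log2 fold enrichment, centred on the library median, had an SD of 0.756 over these regions against 0.546 to 0.578 in the other lists, so its strong regions were relatively stronger and its weak ones weaker. The values that move most without it are given both ways.

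Rad21 strength in a region was the fold enrichment at the highest summit, which the authors' peak caller gives as summit height plus 1 over expected background plus 1. It was compared as log2 values centred on each library's median, FS_Ia minus FS_Ca, over the 9176 regions held by all 4 lists. No region passed (limma with Benjamini-Hochberg adjustment, 0 of 9176 at adjusted p under 0.05, 0.0% in each direction; lowest adjusted p = 0.125). At an unadjusted limma p under 0.05 there were 496 regions (5.41%), of which 309 were stronger and 187 weaker in FS_Ia. With no difference anywhere, a share of about 0.05 would be found at this threshold. The differences had a median of 0.0739 and quartiles of -0.209 and 0.33, and 98.7% of the regions were within 2-fold. Differences of 2-fold or more were found in 78 regions that were stronger in FS_Ia (0.85%) and 44 that were weaker (0.48%). The median 95% interval, before adjustment, reached 0.774 to either side on the log2 scale, which is 1.71-fold. Smaller changes at single regions were not detectable with 2 libraries a genotype. Larger ones could be missed too, since even the largest difference, 1.82, did not pass after adjustment.

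Both FS_Ia libraries were above both FS_Ca libraries in 1838 regions (20.0%) and below both in 1305 (14.2%), and the genotypes overlapped in the other 6033 (65.7%). If genotype made no difference, a share of 0.333 of regions would still show no overlap, and the regions without overlap were near that share. The excess of stronger regions depended on the scaling. Stronger regions made up 58.5% of those without overlap after median centring, 52.4% after quantile normalisation (1522 stronger, 1382 weaker) and 50.8% after cyclic loess normalisation (1648 stronger, 1599 weaker). The median difference of all regions was 0.0147 and 0.00252 after these normalisations. Without FS_Ia replicate 2, where a single library stands for FS_Ia, it was 0.0538 and stronger regions made up 55.6% of those without overlap.

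By the correlation of region strengths, the pairs of libraries within a genotype fell within the range of the pairs across genotypes. Across the 9176 regions, centred log2 values of the FS_Ca pair had r = 0.648 and those of the FS_Ia pair r = 0.609, beside r from 0.537 to 0.661 for the pairs that crossed genotypes. The SD of the log2 difference between FS_Ca replicates was 0.48, beside 0.536 estimated from counting error of the summit heights alone. Between FS_Ia replicates it was 0.605, beside an estimate of 0.588. The crossed pairs had SDs of 0.463 to 0.657, the larger ones with FS_Ia replicate 2, beside estimates of 0.533 to 0.591. Some observed SDs were below their estimate, so the estimate is not a lower bound in these regions. These correlations are across regions of the same libraries and are given as a description.

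**Figure D1:**
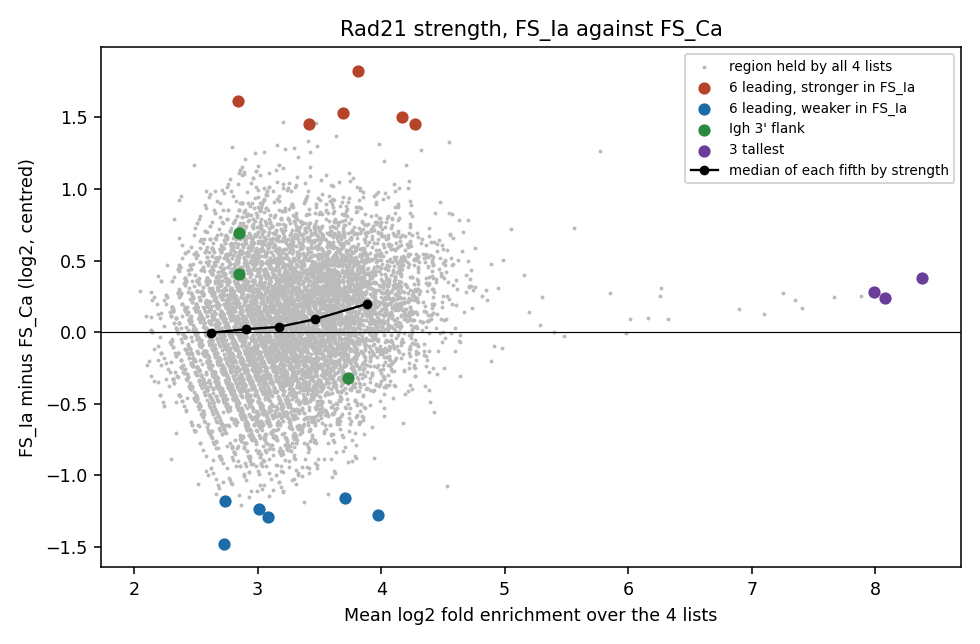
Difference in Rad21 strength (FS_Ia minus FS_Ca, centred log2, vertical axis) against mean log2 fold enrichment over the 4 lists (horizontal axis), 1 grey point for each of the 9176 regions held by all 4 lists. Red and blue points are the 6 leading regions of each direction, green points the 3 regions at the Igh 3' flank, purple points the 3 tallest regions, and the black line joins the medians of 5 equal classes by strength, which run from -0.004 to 0.198.

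The difference was related to strength. Regions were divided into 5 equal classes by mean fold enrichment. In the weakest class (4.14 to 6.85) the median difference was -0.004, and it was 0.021, 0.037 and 0.09 in the next 3. In the strongest class (12.4 to 333) it was 0.198, with 71.4% of regions higher in FS_Ia, 518 above without overlap (28.2%) and 156 below (8.5%). This came from 1 library: in the strongest class the median deviation from a region's mean was 0.29 in FS_Ia replicate 2 and between -0.10 and -0.08 in the other 3. Without FS_Ia replicate 2 the median of the strongest class was 0.052, without FS_Ia replicate 1 it was 0.38, and after quantile and cyclic loess normalisation it was 0.018 and -0.01. By region width, from 292 to 29286 bp, the medians of the 5 classes were 0.061 to 0.083 with no slope. A slope appeared under other settings: from the narrowest to the widest class the medians went from 0.133 to 0.001 without FS_Ia replicate 2, and from 0.085 to -0.049 after quantile normalisation.

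The leading regions were named although none passed: the 6 with the smallest p in each direction. In each the genotypes did not overlap, which a choice by small p favours. Without FS_Ia replicate 2 the differences were 1.05 to 1.39 for the 6 stronger regions and -1.12 to -0.77 for the 6 weaker ones. Since the genotypes did not overlap in these regions, leaving out 1 library could hardly reverse a difference. The kept direction is therefore no support. Where 1 library is left in a genotype, the fit takes the spread from the other genotype alone and assumes that the lone library varies like it. All coordinates are mm9. The region with the smallest p lay on chromosome 17 at chr17:13498742-13499349. Its fold enrichment was 10.04 and 5.777 in FS_Ca replicates 1 and 2, and 16.25 and 41.7 in FS_Ia replicates 1 and 2, from summits of 13, 9, 20 and 50 fragments. Both FS_Ia libraries were higher, replicate 2 by far the most. The difference was 1.82 ± 0.39 on the log2 scale (SE; 95% interval 1.04 to 2.60), or 3.54-fold (limma with Benjamini-Hochberg adjustment, adjusted p = 0.125). The adjusted p was 0.0369 after cyclic loess normalisation, 0.019 with the mean in place of the highest peak, 0.00162 among the peaks with a −log10 q of at least 5, and 0.0489 without FS_Ia replicate 1, where FS_Ia replicate 2 stands alone and only FS_Ca gives the spread. Under the other alternatives it did not pass, from 0.0916 with summit-based regions to 0.997 without FS_Ca replicate 2, with 0.916 after quantile normalisation and 0.655 with the replicate block. In PS cells the order was the other way, with 20.31 and 22.68 in PS_Ca and 8.012 and 19.33 in PS_Ia, a centred log2 difference of -0.95.

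On chromosome 11, chr11:26861438-26862918 had folds of 6.456 and 9.243 in FS_Ca and 17.79 and 26.16 in FS_Ia. This region differed by 1.53 (95% interval 0.78 to 2.28), and here both FS_Ia libraries stood well above both FS_Ca libraries. Its limma adjusted p was 0.309, and over the alternatives it ran from 0.0321, among the peaks with a −log10 q of at least 5, to 1. PS_Ia and PS_Ca differed there by -0.08.

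Chromosome 4 held 2 of the leading regions. At chr4:131393387-131394799 the folds were 9.326 and 12.71 in FS_Ca and 20.11 and 44.15 in FS_Ia, a difference of 1.50 (limma adjusted p = 0.309; over the alternatives 0.0321, among the peaks with a −log10 q of at least 5, to 1). Its value without FS_Ia replicate 1, 0.0489, rests on the FS_Ca spread alone. At chr4:109723164-109724084 they were 4.304 and 4.044 in FS_Ca and 7.736 and 19.62 in FS_Ia, a difference of 1.61 (limma adjusted p = 0.309). The second was a weak region in FS_Ca, with summits of 5 and 6 fragments, and only 1 PS_Ca and 1 PS_Ia library had a peak there.

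The last 2 leading regions in this direction were on chromosomes 13 and 9. The strong region at chr13:74666006-74668408 had folds of 13.63 and 10.4 in FS_Ca and 21.66 and 45.79 in FS_Ia, a difference of 1.45 (limma adjusted p = 0.351; over the alternatives 0.0321, among the peaks with a −log10 q of at least 5, to 1). There PS cells again had the opposite order, -1.30, with PS_Ia replicate 1 lowest at 5.547 and the other 3 PS libraries between 22.57 and 27.09. At chr9:42752616-42753637 the folds were 5.739 and 7.51 in FS_Ca and 13.15 and 22.89 in FS_Ia, a difference of 1.45 (limma adjusted p = 0.411). Both PS_Ia lists held this region as well, at 6.78 and 10.74, and neither PS_Ca list did.

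Among regions that were weaker in FS_Ia, the smallest p was at chr1:87523389-87524325. Its folds were 11.48 and 10.98 in FS_Ca and 4.642 and 3.271 in FS_Ia, from summits of 15, 18, 5 and 3 fragments. The centred log2 values were 0.42 and 0.08 in FS_Ca and -0.87 and -1.58 in FS_Ia. The FS_Ia summits were at or near the lowest called in those lists, 4 and 3 fragments. The difference was -1.48 ± 0.39 (SE, 95% interval -2.25 to -0.71), with an adjusted p of 0.405 (limma with Benjamini-Hochberg adjustment). All 4 PS libraries were near the FS_Ca level, from 10.48 to 14.5, and PS_Ia and PS_Ca differed by -0.01.

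The tallest of the weaker regions was chr3:95848438-95848954, with folds of 17.93 and 34.66 in FS_Ca and 10.06 and 9.812 in FS_Ia. It ranked in the top 1.49% and 0.105% of the FS_Ca lists and in the top 20.8% and 21.5% of the FS_Ia lists. The difference was -1.28 (limma adjusted p = 0.621; over the alternatives 0.0369, after cyclic loess normalisation, to 1), and the PS libraries were high in both orientations, from 25.83 to 37.06.

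The other 4 had limma adjusted p of 0.844 to 0.855. At chr10:52104687-52105823 the folds were 15.07 and 12.13 in FS_Ca and 6.963 and 4.088 in FS_Ia. At chr12:81825754-81826504 they were 14.35 and 10.98 against 5.415 and 4.906. On chromosome 2, chr2:165871366-165872581 had 8.609 and 12.13 against 4.642 and 4.088, and chr2:78799008-78802273 had 20.8 and 19.06 against 10.06 and 7.359. Their differences were -1.29, -1.23, -1.18 and -1.16 in this order. In all 4 regions the FS_Ia libraries had the lowest folds of the 8 libraries of the series, and PS_Ia and PS_Ca differed by 0.05, 0.02, 0.28 and -0.09.

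**Figure D2:**
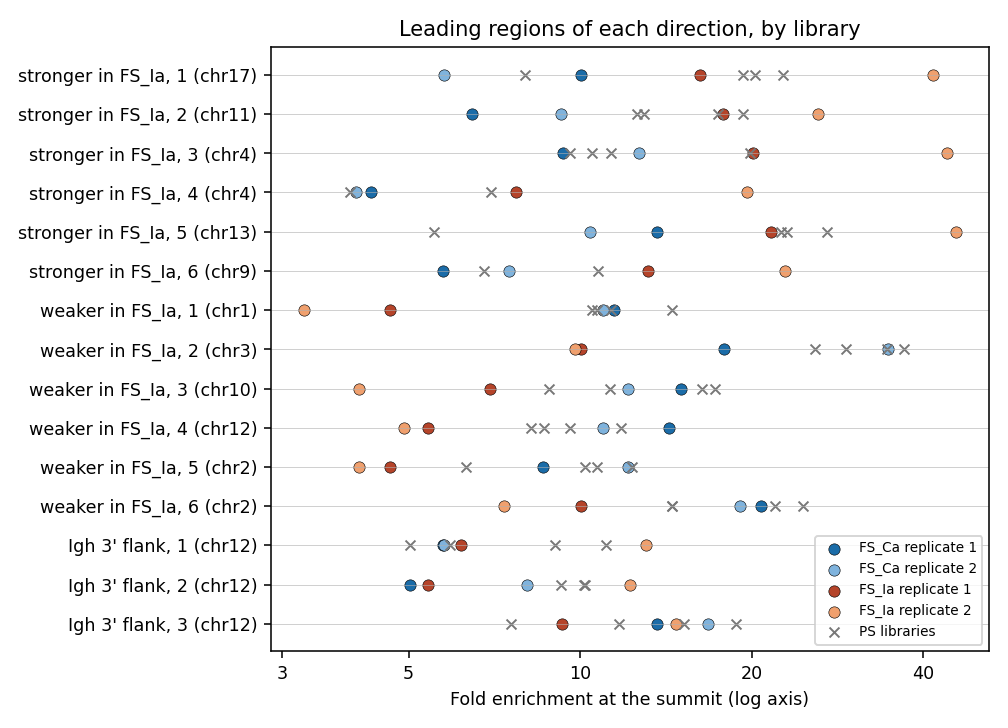
Fold enrichment at the summit (log axis) in each library for the 6 leading regions of each direction and the 3 regions at the Igh 3' flank, 1 row a region. Blue points are the FS_Ca libraries, red and orange points the FS_Ia libraries, and crosses the PS libraries that had a peak. The first row shows the region on chromosome 17, at 10.04 and 5.777 in FS_Ca and at 16.25 and 41.7 in FS_Ia, and in the rows of weaker regions the crosses lie mostly with the FS_Ca points.

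Next to the engineered locus, 3 regions of the Igh 3' flank were held by all 4 lists. This stretch, which ends before the displaced coordinates, is where the CTCF-binding elements that close the Igh domain lie. The first, chr12:114453661-114454813, had folds of 5.739 and 5.777 in FS_Ca and 6.189 and 13.08 in FS_Ia, and both FS_Ia values were above both FS_Ca values. Its difference was 0.69 (95% interval -0.10 to 1.48; limma adjusted p = 0.894), and 0.29 without FS_Ia replicate 2. At chr12:114455117-114456961 the folds were 5.022 and 8.088 against 5.415 and 12.26, so the genotypes overlapped. The difference of 0.41 (95% interval -0.39 to 1.20; limma adjusted p = 0.936) came from FS_Ia replicate 2 and was -0.05 without it. The strongest and widest, chr12:114457880-114462132, had folds of 13.63 and 16.75 against 9.283 and 14.72. These folds overlapped, and after centring both FS_Ia libraries were below, by -0.32 (95% interval -1.07 to 0.43; limma adjusted p = 0.949). All 3 intervals include 0. The non-coding allele of FS_Ca is deleted up to the 3'BCEs, so copies of this flank and Rad21 per copy cannot be told apart between the genotypes.

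The 3 tallest regions of the 4 lists differed by less than their intervals. At chr2:98506290-98507599 the folds were 304.9 and 288.8 in FS_Ca and 393.8 and 354.0 in FS_Ia, a difference of 0.38 (95% interval -0.40 to 1.17; limma adjusted p = 0.936). The neighbours chr9:2999902-3008888 and chr9:3009126-3038411 differed by 0.24 and 0.28 (limma adjusted p = 0.959 and 0.951), with overlap between the genotypes. Those 2 lie at the assembled start of chromosome 9 and turned negative without FS_Ia replicate 1, to -0.17 and -0.09. The PS lists were also tall at the chromosome 2 region, from 236.9 to 324.8. Without an input library, the height of these 3 regions cannot be ascribed to Rad21.

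Presence separated the genotypes at few regions. Both FS_Ca lists and neither FS_Ia list held 1152 of the 41717 regions (2.76%), and both FS_Ia lists and neither FS_Ca list held 304 (0.729%). Some combinations that crossed the genotypes were more common. FS_Ca replicate 2 and FS_Ia replicate 2, the 2 longer lists, alone shared 3246 regions (7.78%), while FS_Ca replicate 1 and FS_Ia replicate 1, the 2 shorter lists, alone shared 219 (0.525%). FS_Ca replicate 2 by itself held 12760 regions (30.6%) and FS_Ia replicate 2 by itself 7701 (18.5%).

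**Figure D3:**
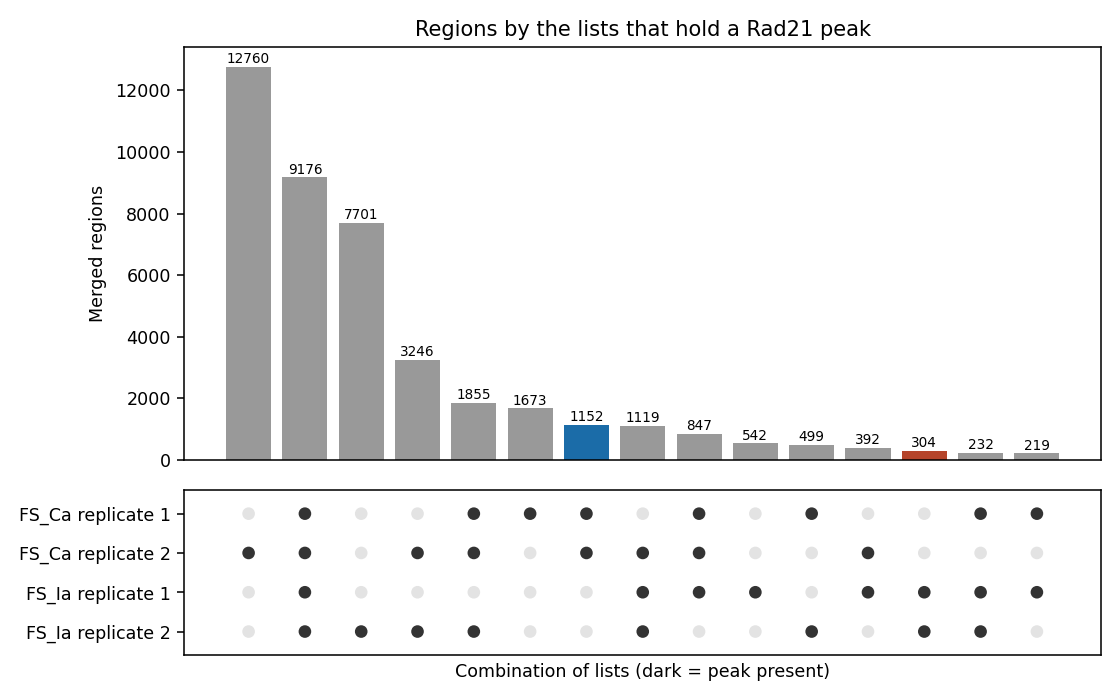
Number of merged regions (bars, vertical axis) for each combination of the 4 lists, with dark dots below for the lists that held a peak. The blue bar is the 1152 regions of both FS_Ca lists alone, the red bar the 304 regions of both FS_Ia lists alone, and the tallest bars are 12760 regions in FS_Ca replicate 2 alone and 9176 in all 4 lists.

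The surplus of FS_Ca-only over FS_Ia-only regions was gone in lists of equal length but stayed under stricter thresholds. Its cause was not tested. Of the 13030 regions held by both FS_Ca lists, both FS_Ia lists shared 70.4%, and of the 10831 held by both FS_Ia lists, both FS_Ca lists shared 84.7%. With every list shortened to its 13840 strongest peaks, the length of the shortest list, there were 568 FS_Ca-only and 587 FS_Ia-only regions. With peaks of a −log10 q of at least 5 there were 621 and 312. When presence was taken from such peaks and absence from the full lists, 220 FS_Ca-only and 59 FS_Ia-only regions were left.

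Regions that separated the genotypes were weaker and narrower than those held by all 4 lists. Against all regions the measures differed. The median summit of FS_Ca-only regions was 6 and 9 fragments in FS_Ca replicates 1 and 2, beside 8 and 9 for all regions. For FS_Ia-only regions it was 6 in either FS_Ia replicate, beside 8 and 6. The median percentile rank, where low is strong, was 62.8 for FS_Ca-only and 65.4 for FS_Ia-only regions, beside 61.7 for all regions. The median width was 577 bp for FS_Ca-only regions and 467 bp for FS_Ia-only regions, beside 472 bp for all regions and 1239 bp for those held by all 4 lists. The median highest fold was 6.35 and 6.19, beside 5.72 for all regions and 12.3 for those held by all 4 lists. That fold is the higher of 2 lists for either kind, while most of all regions were held by a single list.

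The share of peaks without a partner in the other genotype climbed as peaks became weaker within each list. Among regions held by both FS_Ca lists, neither FS_Ia list held 46 of the 4303 among the best-ranked 25% of FS_Ca replicate 1 (1.07%) and 22.2% of those in its lowest-ranked 25%. Among regions held by both FS_Ia lists, neither FS_Ca list held 1 of the 3106 among the best-ranked 25% of FS_Ia replicate 1 (0.0322%), which was chr1:167050637-167051041, and 8.43% of those in its lowest-ranked 25%. By the ranks of the replicates 2 the same shares went from 1.33% to 31.3% in FS_Ca and from 0.513% to 9.75% in FS_Ia. Strong regions that both replicates of a genotype held were thus nearly all present in at least 1 list of the other.

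The best-ranked FS_Ca-only regions were those with the best mean rank in the 2 lists. They were led by chr3:154897586-154898954, with folds of 10.04 and 12.71 in FS_Ca replicates 1 and 2. The next were chr9:69353160-69354393 (15.07 and 8.088), chr5:87279177-87279815 (11.48 and 9.821) and chr14:87851638-87852316 (10.04 and 11.55). Those 4 had a peak in at least 3 PS lists, both PS_Ia lists included. The other 2 were chr14:14030820-14031538 (12.91 and 8.088), which of the PS lists only PS_Ca replicate 2 held, and chr14:61132031-61133238 (9.326 and 11.55), held by all 4 PS lists.

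The best-ranked FS_Ia-only regions were chr13:95879521-95879914, with folds of 9.283 and 10.63 in FS_Ia replicates 1 and 2 and a peak in all 4 PS lists, and chr10:23698887-23699637 (8.51 and 11.45), held by 3 PS lists. The third, chr1:167050637-167051041 (12.38 and 6.541), was held by both PS_Ia lists, at 6.163 and 8.593, and by neither PS_Ca list. The fourth, chr11:63733938-63734531 (6.963 and 16.35), had a peak in PS_Ia replicate 2 only, at 4.834. The last 2, chr17:36901221-36901729 and chr6:125558867-125559404, had the same pair of folds (7.736 and 10.63) and a peak in 3 and 2 PS lists.

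Most regions of either kind were present in PS cells of the opposite orientation. Of the 1152 FS_Ca-only regions, 95.1% had a peak in at least 1 PS list (74.5% of all regions), 84.6% in at least 1 PS_Ca list and 87.8% in at least 1 PS_Ia list. In both PS_Ca lists and no PS_Ia list there were 14 (1.22%, beside 0.379% of all regions), and in both PS_Ia lists and no PS_Ca list 42 (3.65%, beside 2.31% of all regions). Of the 304 FS_Ia-only regions, 79.6% had a peak in a PS_Ia list and 62.5% in a PS_Ca list, with 16 in both PS_Ia lists only (5.26%) and 4 in both PS_Ca lists only (1.32%). Those 4, looked up after the counts were seen, were chr1:34948382-34949118, chr7:81499372-81500105, chr11:42812668-42813141 and chr17:24979602-24979995. Over all 41717 regions the shares were 69.3% for PS_Ia and 55.9% for PS_Ca, so the PS lists favoured PS_Ia throughout.

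Across single regions, strength differences had almost no correlation between FS and PS cells. FS and PS libraries are separate, and 6740 regions were held by all 8 lists. Across them the FS_Ia minus FS_Ca and PS_Ia minus PS_Ca differences had r = -0.046 (Spearman's rho = -0.045), given as a description. Of the 375 with an unadjusted limma p under 0.05 in FS cells, 165 (44.0%) had the same sign in PS cells, beside 47.7% of all 6740. With 2 libraries a genotype these differences are noisy, so a shared effect could be missed.

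By chromosome, medians of the strength difference ranged from -0.013 on chromosome 13 to 0.139 on chromosome 11. Chromosomes 7, 12 and 15 followed at 0.135, 0.126 and 0.121. Without FS_Ia replicate 2 the order changed: chromosome 15 was highest at 0.103, chromosomes 12, 11 and 7 were at 0.089, 0.084 and 0.076, chromosome 13 was at 0.074 and chromosome 3 was lowest at -0.034. On every chromosome but 3, 6, 10 and 13, FS_Ia replicate 2 had the highest of the 4 median deviations, while those of FS_Ia replicate 1 stayed between -0.04 and 0.03. After quantile normalisation the medians ran from -0.065 on chromosome 16 to 0.094 on chromosome 7. FS_Ca-only regions made up 1.62% of the regions of chromosome 11 and 4.02% of those of chromosome 13, the lowest and highest shares, and chromosome 1 had 3.94%. FS_Ia-only shares ran from 0.438% on chromosome 16 to 0.975% on chromosome 18. Chromosome 16, where PS_Ia and PS_Ca differed by a median of 0.40, was at 0.007 in FS cells.

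**Figure D4:**
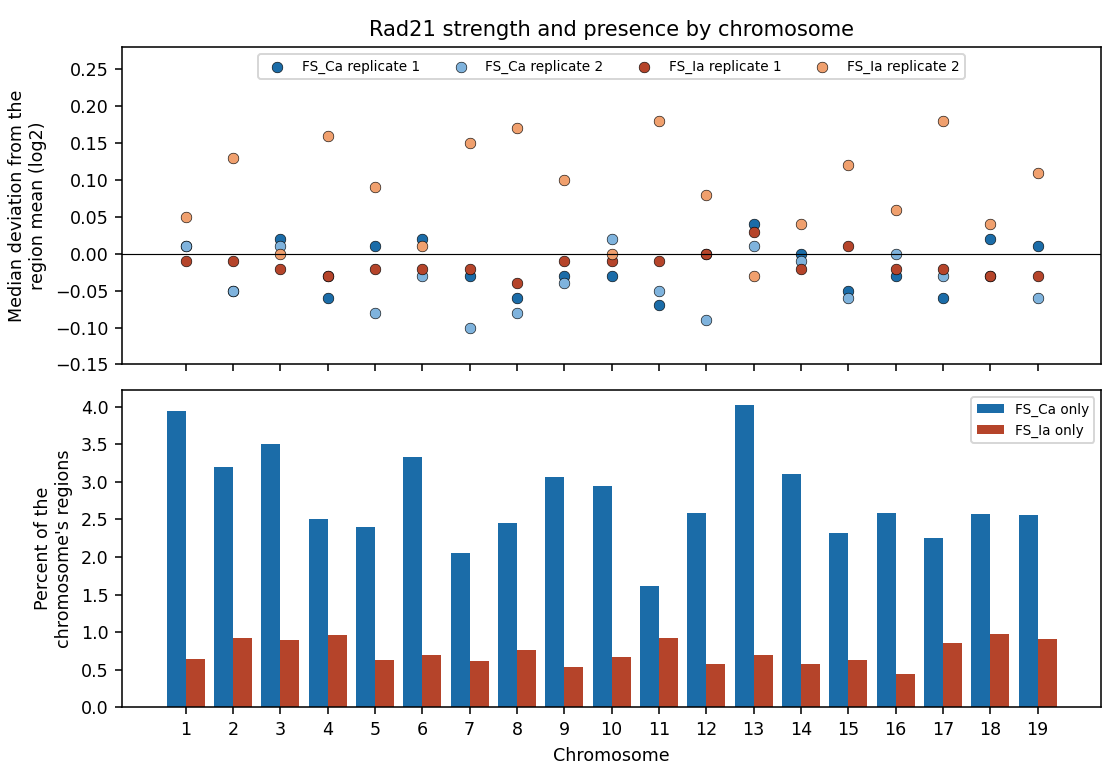
Upper part: median deviation of each library from the region mean (centred log2) in the regions held by all 4 lists, by chromosome; lower part: FS_Ca-only and FS_Ia-only regions as a percentage of each chromosome's regions. FS_Ia replicate 2 reaches 0.18 on chromosomes 11 and 17, and the FS_Ca-only share runs from 1.62% on chromosome 11 to 4.02% on chromosome 13.

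Windows of 5 Mb were used to describe neighbouring regions together. Of 257 windows with at least 15 regions, the library medians were higher in both FS_Ia libraries in 65, lower in both in 19, and overlapped in 173. If genotype made no difference, a share of 0.333 of windows would still show no overlap. The windows without overlap were near that share, so their number is no sign of joint shifts. Window medians ran from -0.341 to 0.46, and 191 were above 0, or 141 after quantile normalisation. The stretches described next were chosen after these medians were seen, so their values carry no test.

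The proximal end of chromosome 11 had the highest medians, 0.43 in its first 5 Mb and 0.46 in the next. Up to 45 Mb, 145 of its 185 regions (78.4%) were higher in FS_Ia, 76 without overlap (41.1%) and 6 lower without overlap (3.24%), beside 20.0% and 14.2% over all regions. The rest of the chromosome had 19.0% and 13.4%. The median difference was 0.34 up to 45 Mb and 0.09 past it, and 0.27 and 0.02 after quantile normalisation. Median deviations were -0.08 and -0.24 in FS_Ca replicates 1 and 2 and 0.13 and 0.26 in FS_Ia replicates 1 and 2, so both FS_Ia libraries were above both FS_Ca libraries. Leaving out each library in turn gave 0.26 to 0.37, the value without FS_Ia replicate 2 being 0.33. The lists showed the same order in numbers: this stretch held 2.1% and 2.09% of the regions of the FS_Ia lists and 1.61% and 1.53% of those of the FS_Ca lists. The leading region at chr11:26861438-26862918 lies in it. PS_Ia and PS_Ca differed there by a median of -0.06 over 163 regions. No single region passed (lowest limma adjusted p = 0.309). Copies of a stretch and Rad21 per copy cannot be told apart in these lists, which have no input library.

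A smaller stretch on chromosome 15, from 55 to 60 Mb, was shifted in the same direction. Of its 38 regions, 30 were higher in FS_Ia, 20 without overlap (52.6%), beside 1 that was lower without overlap (chr15:59219366-59221287, at -0.62). The median difference was 0.38, against 0.10 on the rest of the chromosome, and 0.44 without FS_Ia replicate 2. Median deviations were -0.15 and -0.22 in FS_Ca and 0.16 and 0.28 in FS_Ia, with no overlap. PS_Ia exceeded PS_Ca there as well, by 0.33 over 24 regions, while elsewhere on chromosome 15 it was lower by a median of -0.11. Of the FS_Ia lists' regions, 0.429% and 0.431% fell in this stretch, and of the FS_Ca lists' 0.275% and 0.285%.

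Windows with the opposite shift were led by 2 on chromosome 6, from 95000001 and from 145000001, with medians of -0.341 over 19 regions and -0.308 over 23. Both FS_Ia library medians were below both FS_Ca medians in each, and without FS_Ia replicate 2 the values were -0.433 and -0.145. PS_Ia and PS_Ca differed there by -0.01 and 0.01. Both windows were mixed, with 42.1% and 39.1% of their regions higher in FS_Ia. Lower without overlap were 47.4% and 39.1%, beside 14.2% over all regions. Higher without overlap were 21.1% and 21.7%, beside 20.0% over all regions.

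The window with the third lowest median, -0.289 over 62 regions, was on chromosome 1. It holds the stretch from 85001024 to 87956383, which had the most FS_Ca-only regions by count. This stretch is empty of peaks from 85343651 to 87343774 and dense on both sides. It held 230 regions, of which 23 (10.0%) were FS_Ca-only and 1 (chr1:85028203-85028705) was FS_Ia-only, while 2.72% of regions elsewhere were FS_Ca-only. The 1-Mb window from 85000001 had 17 FS_Ca-only regions of 112 (15.2%), and the next highest count of the genome was 7 of 87 (8.05%). By share a window of chromosome 10 from 107000001 was higher, with 4 of its 12 regions (33.3%). FS_Ca replicates 1 and 2 held 105 and 199 regions of the stretch and FS_Ia replicates 1 and 2 held 65 and 99, or 0.671% and 0.651% of the regions of the FS_Ca lists and 0.507% and 0.41% of those of the FS_Ia lists.

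Strength in that stretch followed presence only in part. Of the 50 regions held by all 4 lists, 41 were lower in FS_Ia, 20 without overlap (40.0%), and 4 were higher without overlap, all before the empty part and by at most 0.33. The median difference was -0.34, and the leading weaker region chr1:87523389-87524325 is among them. Library medians of the centred log2 strength were 0.00 and 0.47 in FS_Ca replicates 1 and 2 and -0.14 and -0.13 in FS_Ia, so FS_Ca replicate 2 stood well above the other 3. Without FS_Ca replicate 2 the difference was -0.06, and without FS_Ca replicate 1 it was -0.62. In lists of equal length 18 FS_Ca-only regions were left, and with presence from peaks of a −log10 q of at least 5 there was 1. All 23 FS_Ca-only regions had a peak in at least 1 PS_Ia list, and 17 in both. PS_Ia was above PS_Ca there by a median of 0.24 over 48 regions. As on chromosome 11, copies of this stretch and Rad21 per copy cannot be told apart without an input library.

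**Figure D5:**
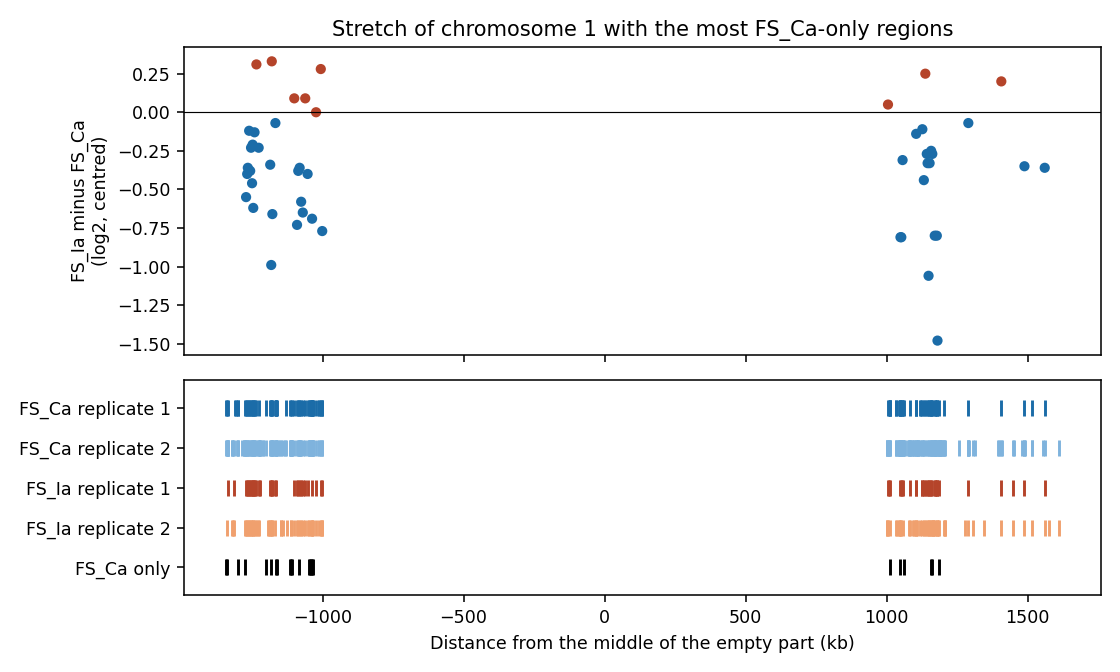
The stretch of chromosome 1 with the most FS_Ca-only regions by count, drawn by distance from the middle of its empty part (kb, horizontal axis). Upper part: strength difference of the 50 regions held by all 4 lists, 41 of them below 0 (blue); lower part: ticks for the regions held by each list, with 105 and 199 in FS_Ca and 65 and 99 in FS_Ia, and in black the 23 regions of both FS_Ca lists alone.

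Some windows rested on a single library. The window of chromosome 12 before the left-out end, from 110000001, had a median of 0.333 over 42 regions, but the median deviations were -0.13 and -0.11 in FS_Ca, -0.13 in FS_Ia replicate 1 and 0.39 in FS_Ia replicate 2. Without FS_Ia replicate 2 its median was 0.086. The library medians therefore overlapped in the window nearest to Igh.

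At the left-out end of chromosome 12, summits of FS_Ia replicates 1 and 2 lined up best with those of FS_Ca replicate 2 after an offset of 2.32 and 2.31 kb. With the offset, 68.4% and 69.2% of their summits had a partner within 500 bp, against 5.26% and 3.85% as deposited. FS_Ca replicate 1 needed an offset of only 0.048 kb, and before the limit no list was offset by more than 0.003 kb. The last region kept, chr12:114499304-114499814, and the first left out, chr12:114565502-114566298, were each held by FS_Ca replicate 2 alone, at folds of 4.044 and 5.199. Positions of Cg3, Ia and Ca in mm9 were not used here, so the genotype labels were not checked against the deleted segments.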

How the data were processed

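Each library has its own narrowPeak list, so peaks were called per library. The submitters' processing notes name mm9, MACS2 2.2.7.1, Bowtie2 2.4.4, deepTools 3.5.1 and SAMtools 1.15.1, without settings; for thresholds and read filters nothing is given in the sources used here. The deposited lists give, per peak, the authors' score, a fold enrichment (ratio), −log10 p and −log10 q; the fold is the authors' own value, used within each list after log2 transformation. Depth is known only through the background expected per library, 0.223 to 0.731 fragments in the FS lists. The deposited fold values came out as whole summit heights within 0.00091 fragments in each list.

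Regions were merged at 1 bp overlap. Strength was tested with limma 3.58.1 (R 4.3.3; variance trend, genotype only, Benjamini-Hochberg over all 9176 regions, threshold 0.05), and peak numbers by exact permutation. Other steps ran in Python 3.11.15, pandas 2.3.3 and scipy 1.17.1, tested on simulated data. The text names, per direction, the 6 regions with adjusted p under 0.05 and the largest difference, filled up by smallest p, the 6 best-ranked by presence, the Igh 3' flank and the 3 tallest. Alternatives were other normalisations, peak summaries, thresholds, merging and library sets. Members, lists and rules were chosen with earlier results of these data known. Annotation at hand was of another build, so no gene names or sequences are given.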

Additional observations from a re-analysis of the deposited data

Results flagged for a closer look

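Chromosome X was left out of the comparison, and its peaks entered only the alternative that kept chromosomes X and Y. FS_Ca replicates 1 and 2 had 592 and 382 peaks there (3.44% and 1.21% of their lists), and FS_Ia replicates 1 and 2 had 321 and 459 (2.32% and 1.75%). The shares overlapped between the genotypes. Merged into 986 regions, they held 91 regions common to all 4 lists, 28 FS_Ca-only (2.84%) and 12 FS_Ia-only.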

How the results depend on the processing

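No region was called as reported, and the count was also 0 after quantile normalisation (464 at unadjusted p under 0.05), without the variance trend (506), with summit-based regions, with all 8 libraries, with regions of at least 1 library a genotype and with chromosome X kept. It was 3 after cyclic loess normalisation, 1 with mean folds and 4 with peaks of a −log10 q of at least 5 (limma); leaving out each library in turn gave 0 to 3, the 3 without FS_Ia replicate 1, with the spread from FS_Ca alone. With the replicate number as a block it was 0 (548 unadjusted; lowest limma adjusted p 0.655). The labels do not pair the libraries, and same-numbered deviations had a correlation of 0.094; the replicate block changed no call.

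FS_Ca-only regions numbered 621 with peaks of a −log10 q of at least 5, 568 in equal lists and 220 with strict presence; FS_Ia-only regions numbered 587 in equal lists, 543 with summit-based regions and 59 with strict presence. Leaving out each library gave 1999 to 13912 and 536 to 8005, since fewer lists have to agree. The difference in peak number ran from -11551.5 to 2996.5, positive without FS_Ca replicate 2 (2996.5) or FS_Ia replicate 1 (1809.0). Of 223 alternative values of the 18 named regions, 217 kept their direction and 6 reversed, none among the leading 12: chr12:114455117-114456961 was -0.05 without FS_Ia replicate 2 (up to 0.87 with others left out); chr9:2999902-3008888 was -0.05 with mean folds and -0.17 without FS_Ia replicate 1 (up to 0.67); chr9:3009126-3038411 was -0.05 after quantile normalisation and with mean folds, and -0.09 without FS_Ia replicate 1 (up to 0.67). The leading 12 were chosen by small p and had no overlap, so their direction could hardly reverse and is no support. The strongest class was -0.01 after cyclic loess normalisation. The causes were not tested. Depth limits single regions: summits of 3 to 5 fragments were the lowest called. The alternatives for peak number, the strongest class and the stretches of chromosomes 1, 11 and 15 were chosen after seeing the data.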
